A study of Mus musculus with 20 samples.

Results

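As measured, a stretch of distal mouse chromosome 5 was segmented as a gain in steps in 1 of 20 mesotheliomas. It was read by 716 of the 170305 array probes, all non-control probes that the files place in the window, from chr5:113002238 to 121988656 in build mm9. Of these, 143 probes make the upper step (up to 114.59 Mb), 554 the lower step (up to 121.79 Mb) and 19 the remainder beyond the second step. The window and both steps were chosen from the measured ratios of that tumour, so their size is a description and is not tested. A fall of the ratio at the second step was also seen in the other 19 tumours. The files give 136 gene names within the window, and 50 of these genes have at least 3 probes there.

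Peritoneal mesotheliomas arose after mice received crocidolite, the iron-rich blue asbestos, intraperitoneally at 6 and 7 weeks of age, 1.5 mg each time and 3 mg in all, with 600 to 700 days of observation. Cy5-labelled tumour DNA was hybridised against Cy3-labelled DNA of non-neoplastic C57BL/6 kidney, which the labels give the genotype of the tumour. The groups were Wild type(Dmt1) with 4 tumours, Dmt1Tg with 4, Wild type with 3, and MutyhKO, Ogg1KO and Mth1KO with 3 each. Every tumour came from a crocidolite-treated mouse. Dmt1 is an iron transporter, and the labels name no promoter for the transgene. Ogg1 removes oxidised guanine from DNA, Mutyh removes adenine mispaired with it, and Mth1 clears oxidised nucleotides. Since both channels share a genotype, the ratios do not check the deleted or added gene. Nothing in the labels says that tumours of a group came from separate mice, so a p-value here reflects the spread among the arrayed tumours only. Each tumour was read on 1 array.

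Array comparative hybridisation reads DNA copy number as the log2 ratio of tumour over normal signal, with 0 as the typical autosomal level of the array. Normal cells in the sample, and tumour cells without a change, pull the ratio towards 0. A ratio is therefore not a copy number by itself, and purity was not measured. A gain that changes height along a chromosome appears as neighbouring segments of different level.

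The probes on both sides of each border are shown because the borders are known only to the gap between them. These gaps were 8.39 kb at the rise, 6.78 kb at the first step as the segmentation placed it, 5.88 kb at the first step after each probe was set against its median in the other tumours, and 12.3 kb at the second step. The sequences are printed in lower case as the array files give them, with mm9 positions, and the strand was not read.
Rise, last probe before, chr5:112913939-112913997: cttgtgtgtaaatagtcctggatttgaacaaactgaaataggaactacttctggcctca
Rise, first probe after, chr5:112922388-112922447: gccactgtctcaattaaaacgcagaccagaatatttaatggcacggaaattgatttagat
First step as segmented, last probe before, chr5:115006771-115006830: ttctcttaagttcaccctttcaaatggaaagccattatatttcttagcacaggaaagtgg
First step as segmented, first probe after, chr5:115013610-115013669: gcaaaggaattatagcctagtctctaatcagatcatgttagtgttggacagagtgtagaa
First step against the median tumour, last probe before, chr5:116350286-116350345: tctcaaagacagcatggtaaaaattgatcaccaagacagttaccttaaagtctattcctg
First step against the median tumour, first probe after, chr5:116356227-116356286: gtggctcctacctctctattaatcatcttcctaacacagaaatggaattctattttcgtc
Second step, last probe before, chr5:121820716-121820775: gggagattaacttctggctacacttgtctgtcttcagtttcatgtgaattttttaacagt
Second step, first probe after, chr5:121833087-121833146: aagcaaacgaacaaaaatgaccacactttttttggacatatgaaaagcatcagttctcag
Both probes at the rise lie in Sez6l, a neuronal membrane protein, and both at the Cit border in the citron kinase of cytokinesis. The first probe past the second step lies in Trafd1, and the other 3 carry no gene name. In Wild type(Dmt1) tumour 2 the log2 ratios were -0.09 and 2.52 across the rise and 0.93 and 0.26 across the first step as segmented. They were 0.50 and 0.57 across the Cit border and 0.31 and -0.96 across the second step. Single probes do not set a border. The high probe of the rise was also high in the other 3 tumours of the slide, from 0.76 to 2.74, and the low Trafd1 probe had a median of -0.79 over the other 19 tumours.

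As measured, the stepped gain was that of Wild type(Dmt1) tumour 2. It averaged 0.70 ± 0.05 (log2 ratio, SE over 143 probes) in the upper step, 0.35 ± 0.03 (553 probes with a value) in the lower step and 0.03 ± 0.17 (19 probes) beyond. The segmentation, which used no border of the window, placed 189 probes from 112.92 to 115.01 Mb at 0.68 and 519 probes from 115.01 to 121.82 Mb at 0.34. A segment of 0.11 followed, up to 140.29 Mb. As linear ratios the levels were 1.61 and 1.26, which lie 60.7% and 26.2% above the baseline of the array. A segment counts as gained from a mean of 0.2 upwards. By that threshold 699 of the 716 probes were gained in this tumour, against 4.88% of its autosomal probes, and nothing is read from that count because the ratios chose the window.

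**Figure D1:**
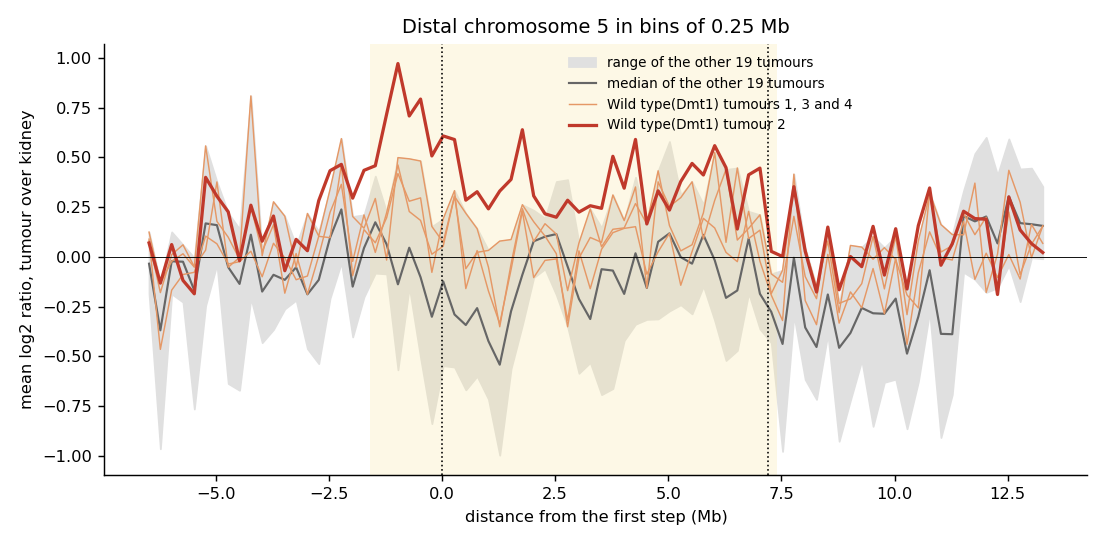
Mean log2 ratio of tumour over kidney in bins of 0.25 Mb (vertical axis) against distance from the first step in Mb (horizontal axis), for Wild type(Dmt1) tumour 2 (thick line), tumours 1, 3 and 4 of its slide (thin lines) and the median and range of the other 19 tumours (dark line and grey area). Shading marks the stretch and dotted lines the steps. Tumour 2 peaks at 0.97, and the median of the others also drops at the second step.

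In bins of 0.25 Mb the ratio of Wild type(Dmt1) tumour 2 peaked at 0.97, from 113.5 to 113.75 Mb, where the median of its 3 slide-mates was 0.46. It was the highest of the 20 tumours in 7 of the 7 bins of the upper step and in 23 of the other 29. The rise was gradual: the 1 Mb before it already averaged 0.32 (51 probes), and the 1 Mb after it 0.74 (92 probes). In the 4 Mb that follow the stretch the tumour averaged 0.04 over 385 probes, and was still the highest.

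In the upper step the other 3 tumours of the slide, Wild type(Dmt1) 1, 3 and 4, had means of 0.27, 0.19 and 0.20, each with an SE over probes of 0.05. Tumour 2 lay 0.48 above their mean, and their SD was 0.05. The Dmt1Tg tumours had 0.09, 0.07, -0.01 and 0.16. All arrays of this first scan day but Dmt1Tg tumour 3 were above 0. Of the 12 arrays of the second scan day, all but MutyhKO tumour 3 were below 0, and that tumour lay above Dmt1Tg tumour 3. The Wild type tumours had -0.18, -0.20 and -0.29, and the MutyhKO tumours -0.19, -0.18 and 0.01. The Ogg1KO tumours had -0.15, -0.09 and -0.21, and the Mth1KO tumours -0.10, -0.24 and -0.13.

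In the lower step Wild type(Dmt1) tumours 1, 3 and 4 had means of 0.14, 0.12 and 0.01, and the Dmt1Tg tumours 0.01, -0.03, -0.05 and 0.01. The Wild type tumours had -0.31, -0.35 and -0.31, and the MutyhKO tumours -0.24, -0.22 and -0.13. The Ogg1KO tumours had -0.19, -0.13 and -0.18, and the Mth1KO tumours -0.14, -0.24 and -0.24. All 8 arrays of the first scan day therefore lay above all 12 of the second. Among autosomal genes with at least 3 probes, 1.29% separated the scan days in full, and 2 of the 50 genes of the stretch did. Beyond the second step the other 19 tumours lay between -0.49 and -0.08, all below the 0.03 of tumour 2.

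Wild type tumours 1 and 2 carry patches of spots with a shifted local median, 64 and 38 of them in the stretch. Without those spots, an exclusion chosen after seeing the data, their lower-step means were -0.17 and -0.25, while Wild type tumour 3 stayed at -0.31. Tumour 2 of Wild type(Dmt1) had no such patch.

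**Figure D2:**
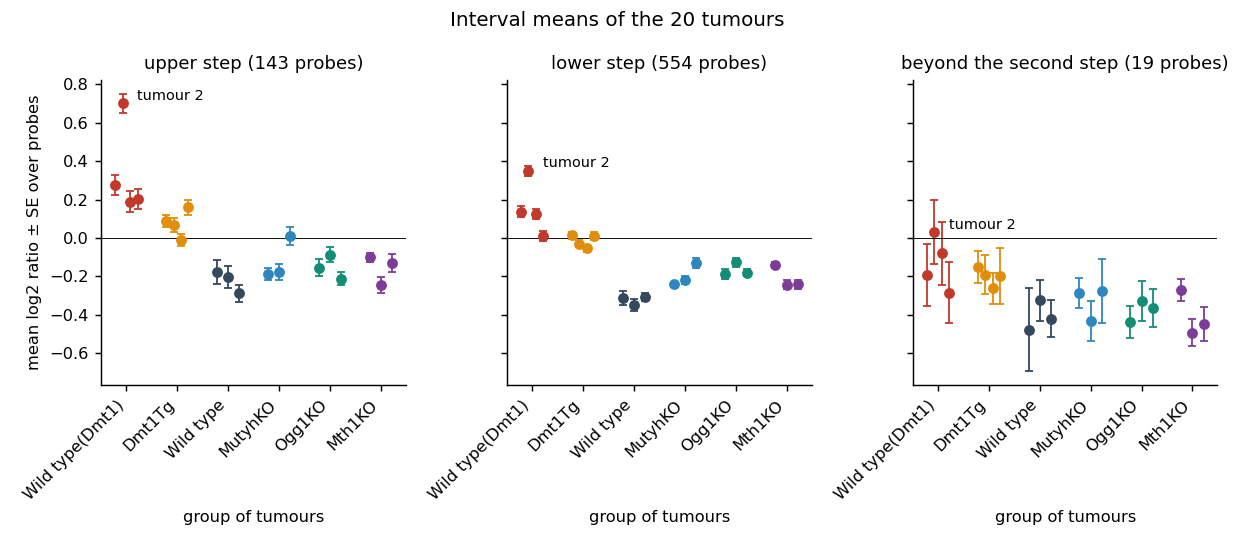
Mean log2 ratio of tumour over kidney in the upper step, the lower step and beyond the second step (panels), 1 point per tumour with its SE over probes, by group on the horizontal axis. Wild type(Dmt1) tumour 2 lies at 0.70 and 0.35 in the first panels, and the first 2 groups lie above the other 4 in the middle panel.

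The excess of Wild type(Dmt1) tumour 2 lay in the tumour channel. In the upper step its centred log2 tumour signal was 0.71, against 0.16 to 0.24 in the other 3 tumours of the slide, and its kidney signal of 0.01 was inside their -0.04 to 0.08. In the lower step its tumour signal was 0.27 against -0.06 to 0.03, and its kidney signal of -0.07 was inside their -0.11 to 0.00.

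The drop at the second step was common to the series. Taken as the mean of the 1 Mb after minus that of the 1 Mb before, it was -0.31 ± 0.10 (SE over probes) in Wild type(Dmt1) tumour 2 and -0.33 to -0.08 in the other 19 tumours, negative in 19 of 19, with a median of -0.22. MutyhKO tumour 3 had the largest drop. Near this step the segmentation put a border to a lower level in 17 of the 20 tumours, and in 7 of them between the same pair of probes. In the tumour channel the change was negative in 19 of the 19 others, with a median of -0.19. In the kidney channel it was negative in 11, with a median of -0.01.

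The first step was larger in Wild type(Dmt1) tumour 2 than in any other tumour as the window gives it, at -0.32 ± 0.09 against -0.21 to 0.01. As the segmentation placed it, at 115.01 Mb, the change was -0.34 ± 0.09, and the others ranged from -0.34 to -0.06 with 19 of 19 negative. Tumour 4 of the same slide came closest there. At this segmented border tumour 2 changed by -0.11 ± 0.23 in the tumour channel and by 0.24 ± 0.21 in the kidney channel. The others changed by -0.06 to 0.27 in the tumour channel and by 0.21 to 0.50 in the kidney channel. At the step as given, tumour 2 changed by -0.66 ± 0.22 in the tumour channel and the others by -0.48 to -0.24. In the kidney channel it changed by -0.34 ± 0.21 and the others by -0.36 to -0.15. At the rise tumour 2 changed by 0.41 ± 0.10 and the others by -0.15 to 0.19.

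Set probe by probe against its slide-mates, Wild type(Dmt1) tumour 2 changed by -0.19 ± 0.05 at the first step as given, and the others, each against its own slide, by -0.18 to 0.09. At the second step it changed by -0.07 ± 0.06, inside the others' -0.17 to 0.12. The segmentation of these differences had 1 border in the stretch, after chr5:116497535, from 0.42 to 0.16. The level of 0.16 is below the threshold of 0.2, and 323 of the 716 probes counted as gained on these differences. Against the median of the other 19 tumours the levels were 0.24, then 0.75 from 113.16 to 116.35 Mb, then 0.37 up to 126.03 Mb. The change at the second step was then -0.11 ± 0.08. Both versions kept a higher proximal level, moved the first step into or near Cit, and had no border at the second step. As measured, tumour 2 changed at the Cit border by only -0.04 ± 0.09. The others changed there by 0.03 to 0.86, with 0 of 19 negative, so the step in Cit is seen only relative to other tumours.

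**Figure D3:**
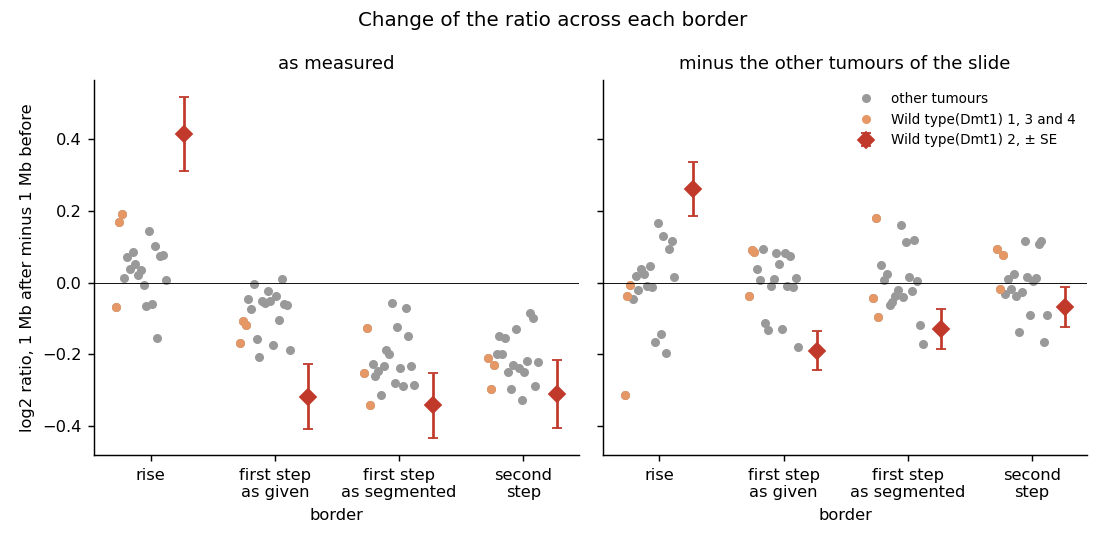
Change of the log2 ratio across each border, the mean of the 1 Mb after minus that of the 1 Mb before (vertical axis), in the 20 tumours as measured (left) and after subtracting the other tumours of each slide (right). The diamond is Wild type(Dmt1) tumour 2 with its SE over probes. At the second step all 20 points lie below 0 on the left, and tumour 2 lies within the other points on the right.

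**Figure D4:**
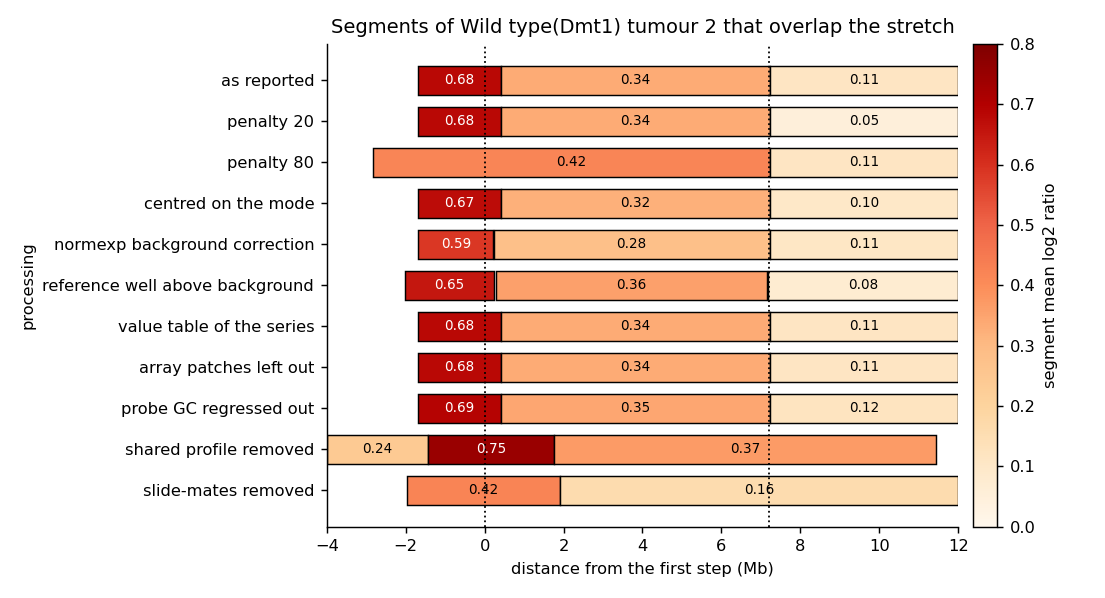
Segments of Wild type(Dmt1) tumour 2 over the stretch under 11 ways of processing (vertical axis) against distance from the first step in Mb (horizontal axis). Colour and printed number give the mean log2 ratio, and dotted lines the steps. Penalty 80 joins the upper and lower levels at 0.42, and the last 2 versions show no border at the second step.

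Over the same stretch 17 of the 20 tumours had probes in lost segments, those at or below -0.2, and 3 had probes in gained ones. Over all autosomal probes the lost share ran from 0% to 32.5% among the tumours. Besides Wild type(Dmt1) tumour 2, the gained segments were in Dmt1Tg tumour 4 (101 probes of the stretch) and Mth1KO tumour 2 (82 probes). These are 14.1% and 11.5% of the stretch, against 1.09% and 15.8% of the autosomal probes of the same tumours. As measured, the most lost probes were in Wild type tumour 1, with 610, and MutyhKO tumour 1, with 587. These are 85.6% and 82.3% of the stretch, against 24.0% and 12.3% of the autosomal probes of the same tumours. Without the patches of spots the counts in these tumours were 186 and 586. The count of 17 was 10 after normexp background correction and 11 at penalty 80, and the count of 3 was 9 at penalty 20. With the median of the other tumours subtracted, 3 tumours had lost probes and 5 had gained ones, among them all 4 of Wild type(Dmt1). Across 36 bins the Pearson r of each other tumour with the median of the rest ran from 0.22 to 0.92 (median 0.81), and that of tumour 2 was 0.15. Its slide-mates were low too, at 0.33, 0.22 and 0.39 for tumours 1, 3 and 4, and the 16 tumours of the other slides ran from 0.70 to 0.92. The tumours share slides, so r is a description.

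Shared dips were picked out after their values were seen. From 115.92 to 116.03 Mb, over 13 probes in Pla2g1b, Sirt4, Pxn and Gcn1, all 20 tumours were below 0. The other 19 ran from -1.44 to -0.27, and Wild type(Dmt1) tumour 2 was the highest at -0.03. From 120.94 to 121.08 Mb, over 16 probes that include Tpcn1 and Iqcd, tumour 2 had -0.05 and the others -0.98 to -0.04. In the first dip the median over 20 arrays was -0.64 in the tumour channel and 0.18 in the kidney channel, and in the second -0.17 and 0.36.

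Genes with at least 3 probes numbered 10 in the upper step and 37 in the lower, with 1 across the second step and 2 beyond it. Among them, 9 of 10 in the upper step averaged 0.2 or more in Wild type(Dmt1) tumour 2 (median 0.78), and 25 of 37 in the lower step (median 0.30). Over all autosomal genes the share was 17.5%. Tumour 2 was the highest of the 20 in 9 of the 10 and 21 of the 37, against 8.75% of autosomal genes. These counts restate the ratios that chose the window, and nothing is read from them. With any number of probes, 84 of the 136 genes of the stretch averaged 0.2 or more in tumour 2. The counts of the gene lists below are to be set beside that share, and nothing is read from them either.

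In the upper step Myo18b, an unconventional myosin, averaged 0.51 ± 0.10 (SE over 23 probes) in Wild type(Dmt1) tumour 2, with 0.16, 0.02 and 0.07 in tumours 1, 3 and 4 and -0.08 to 0.27 over all 19 others. Grk3, a kinase of G-protein-coupled receptors, had 0.76 ± 0.13 over 12 probes, with -0.06, 0.26 and 0.19 in the slide-mates and -0.18 to 0.26 over all others. In both genes tumour 2 was clear of every other tumour. Svop, a synaptic vesicle protein, had 1.23 ± 0.33 over 5 probes, and the slide-mates 0.02, 0.73 and 0.67. Cmklr1, the chemerin receptor, had 1.58 ± 0.84 over 3 probes, and the slide-mates 0.77, 1.09 and 1.01. In Svop tumours 3 and 4 stood high too, and in Cmklr1 all 3 slide-mates did. The SE of Cmklr1 covers its gap to them.

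Ung, the uracil glycosylase of base excision repair, is the last gene before the first step. It had -0.00 at 1 probe in tumour 2 and -3.10 to 0.03 in the others. Of the repair and replication genes, 0 of 3 reached 0.2 in tumour 2. Alkbh2, which reverses alkylation damage, was just short of it at 0.20, and Rfc5, a clamp loader subunit, had 0.09. Each was read by 1 probe, and the list median was 0.09 against -0.53 in the other tumours.

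After the first step come the transcript ENSMUST00000102582, with 0.18 over 2 probes, and Acacb, an acetyl-CoA carboxylase, with 0.64 ± 0.16 over 9 probes in tumour 2. The highest other tumour in Acacb was Dmt1Tg tumour 4, at 0.31. Acacb lies past the step as given and before the step as segmented. On either side of the segmented step lie Mvk, mevalonate kinase, with 0.33 over 2 probes, and BC057022, with -0.02 ± 0.14 over 5. Cit, which holds the border found against the other tumours, had 0.77 ± 0.15 over 15 probes, with 0.54, 0.37 and 0.36 in the slide-mates. Bicdl1, before it, had 0.61 ± 0.27 over 9 probes, and ENSMUST00000127049, after it, -0.38 at 1 probe. Of the metabolic genes, 6 of the 7 with a probe reached 0.2, with a median of 0.33. Pla2g1b, a phospholipase inside the first dip, was the exception at -0.16. Sds, serine dehydratase, had 1.08 at 1 probe, below the 1.59 of tumour 1. Dao, D-amino acid oxidase, had 0.27, Mmab, of cobalamin metabolism, 0.23 and Acads, a fatty acid dehydrogenase, 0.56, each at 1 probe.

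Ras and kinase signalling genes reached 0.2 in 6 of 8 with a probe, against 84 of all 136 genes of the stretch. Their median was 0.44 in tumour 2 and -0.16 in the others. Ptpn11, a phosphatase that couples receptors to Ras, had 0.75 ± 0.38 over 6 probes, with 0.30, 0.47 and 0.14 in tumours 1, 3 and 4. The SE is larger than its gap to tumour 3. Ksr2, a scaffold of Raf and MEK kinases, had 0.28 ± 0.08 over 37 probes, with 0.10, 0.13 and -0.03 in the slide-mates. It is the gene with the most probes in the stretch. Taok3, a stress-pathway kinase, had 0.45 ± 0.21 over 17 probes, and Git2, an Arf regulator, 0.43 ± 0.31 over 5. Rasal1, a Ras inhibitor, had 0.75 over 3 probes but 1.09 in tumour 1. Prkab1, of AMP-activated kinase, had 0.03 and Mapkapk5, beyond the second step, -0.00, each at 1 probe.

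Developmental regulators reached 0.2 in 4 of 6, with a median of 0.39, and tumour 2 was the highest in 1 of them. That was Tbx5, a T-box factor of heart and forelimb, with 0.48 ± 0.11 over 5 probes against at most 0.31. Its neighbour Tbx3 had 0.92 ± 0.73 over 2 probes, and tumours 3 and 4 had 0.92 and 0.72. Med13l, a Mediator subunit, had 0.10 ± 0.07 over 23 probes and 0.12 in tumour 1, so tumour 2 did not stand above its slide there. Foxn4 had 0.36 and Lhx5 0.42 at 1 probe each.

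The oligoadenylate synthetases, interferon-induced sensors of viral RNA, are a family of 12 with 1 or 2 probes each. Oasl1 and Oasl2 lie apart from the other members. They ran from -0.08 to 1.28 in tumour 2 with a median of 0.32, and 7 of 12 reached 0.2. Tumour 2 was the highest in 3, Oas3 at 1.28, Oasl2 at 0.49 and Oas1e at 0.48, and in Oas3 tumours 3 and 4 had 1.18 and 1.21. Similar copies can share signal at a probe, so members are uncertain. Hrk, a pro-apoptotic gene, had 0.58 at 1 probe, behind 2 other tumours.

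Cytoskeletal and adhesion genes reached 0.2 in 3 of 6, with a median of 0.20 against -0.43 in the others, and tumour 2 was the highest in 5. Besides Myo18b these were Myo1h, a myosin, with 0.74 ± 0.15 over 6 probes and Coro1c, an actin-binding coronin, with 0.26 ± 0.25 over 7. Ssh1, a cofilin phosphatase, had 0.13 ± 0.14, Pxn, paxillin, -0.15 ± 0.44 and Dynll1, a dynein light chain, -0.20. Channel and neuronal genes reached 0.2 in 2 of 5, with a median of 0.20. Nos1, neuronal nitric oxide synthase, had 0.67 ± 0.25 over 9 probes and Rph3a, of synaptic vesicles, 0.37 over 7. Srrm4, a splicing factor, had 0.20 ± 0.14 over 14, Trpv4, a cation channel, -0.09 and Msi1, an RNA-binding protein, -0.12.

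The last transcript before the second step, ENSMUST00000119892, had 0.53 ± 0.24 over 10 probes in tumour 2 and 0.15, 0.37 and 0.29 in the slide-mates. Past the step, Naa25, of an N-terminal acetyltransferase, had -0.27 ± 0.15 and Tmem116 0.02 ± 0.16, over 5 probes each. In Tmem116 the other 19 tumours had -1.12 to -0.10.

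**Figure D5:**
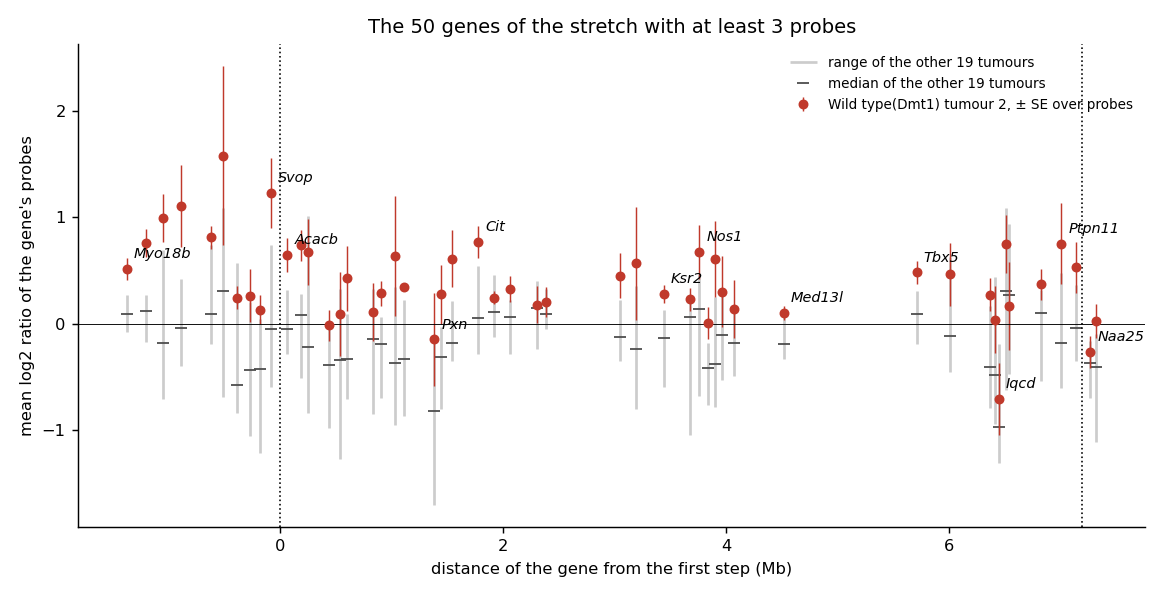
Mean log2 ratio of the 50 genes with at least 3 probes (vertical axis) against distance from the first step in Mb (horizontal axis), for Wild type(Dmt1) tumour 2 (points with SE over probes) and the other 19 tumours (bars for the range, dashes for the median). Medians in tumour 2 are 0.78 left of the first dotted line and 0.30 between the lines.

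Wild type(Dmt1) tumour 2 had 5 gained autosomal segments of 54, and the upper one here was the highest. The lower one, at 0.34, was closest in level to another gained segment of chromosome 5, from 140.31 to 146.92 Mb, at 0.33. The 2 gained segments of chromosome 15 had 0.35 and 0.29.

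The genotypes were compared over tumours in the lower step. Wild type(Dmt1) tumour 2, whose ratios chose the window, is among the wild-type tumours, so each comparison is given with and without it. The 7 wild-type tumours of both sets averaged -0.05 ± 0.27 (SD, n = 7). Dmt1Tg, at -0.02 ± 0.03 (SD, n = 4), differed from them by 0.03 (exact two-sided permutation p = 0.812, adjusted over 4 contrasts 0.812). MutyhKO, at -0.20 ± 0.06 (SD, n = 3), differed by -0.15 (exact permutation p = 0.383, adjusted 0.644). Ogg1KO, at -0.16 ± 0.03 (SD, n = 3), differed by -0.12 (exact permutation p = 0.483, adjusted 0.644), and Mth1KO, at -0.21 ± 0.06 (SD, n = 3), by -0.16 (exact permutation p = 0.367, adjusted 0.644). Without tumour 2 the 6 wild-type tumours averaged -0.12 ± 0.23 (SD, n = 6), and the differences were 0.10, -0.08, -0.05 and -0.09 (exact permutation p = 0.41, 0.548, 0.667 and 0.524, adjusted 0.667 for all 4). None passed with or without it, and each difference was smaller than the SD of the wild-type tumours.

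Wild-type tumours of the 2 scan days lay apart, so each genotype was also set against those of its own day. Dmt1Tg then differed from Wild type(Dmt1) by -0.17 (exact permutation p = 0.0571, n = 4 and 4), and by -0.11 without tumour 2 (exact permutation p = 0.0571, n = 4 and 3). MutyhKO, Ogg1KO and Mth1KO differed from Wild type by 0.12, 0.16 and 0.12. In each, 3 of 3 tumours lay above all Wild type ones, and the exact permutation p of 0.1 is the smallest that 3 against 3 allows. Without the patches of spots these differences were 0.04, 0.08 and 0.03 (exact permutation p = 0.4, 0.3 and 0.5). All 4 differences changed sign with the wild-type set, and in the pooled comparison scan day and genotype cannot be told apart. Within a scan day, slide is mixed with genotype. Wild type(Dmt1) fills 1 slide and Dmt1Tg another, so slide and genotype cannot be told apart between them. The Wild type tumours share their slide with MutyhKO tumour 1 and with no Ogg1KO or Mth1KO tumour.

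Gene by gene, limma with Benjamini-Hochberg adjustment over 9453 genes called 0% of genes in all 4 contrasts with the 7 wild-type tumours, and 0 of the 51 tested in the stretch (Sez6l, with probes before the window, is the 51st). At an unadjusted p under 0.05 it passed 3.33%, 9.31%, 7.66% and 9.47% of all genes for Dmt1Tg, MutyhKO, Ogg1KO and Mth1KO, and 0, 5, 6 and 9 of the 51, all with lower means than wild type. These counts turned on single tumours. Leaving out Wild type tumour 3 raised them to 3, 15, 15 and 15, and 3.94%, 13.1%, 12.0% and 14.3% of all genes then passed. Leaving out Wild type(Dmt1) tumour 2 gave 5, 2, 5 and 6, of which 0, 2, 4 and 5 had lower means than wild type. The share of all genes was then 4.07%, 8.03%, 6.14% and 7.70%. Without MutyhKO tumour 1 or 2, or Mth1KO tumour 2, that group had 1, beside 11.0%, 4.72% and 4.54% of all genes. The median difference of the 51 was 0.03, -0.15, -0.15 and -0.21. The lowest adjusted p for MutyhKO was at Fbxw8, an F-box protein (-0.25 ± 0.11 SE, limma adjusted p = 0.521), Git2 (-0.34 ± 0.14) and Bicdl1 (-0.32 ± 0.14). For Ogg1KO, Ube3b, a ubiquitin ligase, differed by -1.07 ± 0.31, Cmklr1 by -1.06 ± 0.32 and ENSMUST00000119892 by -0.37 ± 0.12 (limma adjusted p = 0.629). For Mth1KO, ENSMUST00000119892 differed by -0.35 ± 0.12 (limma adjusted p = 0.47), Fbxw8 by -0.31 ± 0.11 and Gltp, a glycolipid transfer protein, by -0.57 ± 0.22. For Dmt1Tg the first were ENSMUST00000119892 at -0.23 ± 0.11, Naa25 at 0.18 ± 0.09 and ENSMUST00000138579 at 0.35 ± 0.18 (limma adjusted p = 1.00).

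With wild-type tumours of their own scan day, limma called 0%, 4.05%, 3.22% and 2.95% of all genes for Dmt1Tg, MutyhKO, Ogg1KO and Mth1KO, and 0, 0, 1 and 0 of the 51. The call was Ksr2, higher in Ogg1KO by 0.35 ± 0.09 (SE, limma adjusted p = 0.0474), with -0.15, -0.11 and -0.07 against -0.53, -0.60 and -0.23 in Wild type. It rests on the patches of spots. Without them Wild type tumours 1 and 2 had -0.15 and -0.24 in Ksr2 (31 of 37 probes each), and the difference was 0.10 ± 0.07 (limma adjusted p = 0.688). The calls over all 8962 genes then tested were 0, 21, 1 and 2, and 0 in the stretch for all 4 contrasts. At an unadjusted p under 0.05, 9.24%, 22.1%, 19.9% and 19.5% of all genes passed, and 18, 9, 10 and 9 of the 51. Without the patches 49 genes of the stretch could be tested, and 19, 5, 4 and 3 passed. For Dmt1Tg all 18 found with the patches kept had lower means than Wild type(Dmt1), the set that includes tumour 2.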

How the data were processed

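DNA copy number was measured on 20 arrays, 1 per tumour, grouped by the labels. Per the file headers, the deposited red and green intensity of each spot had its background subtracted, a spatial trend removed and its dyes scaled linearly. The software was Agilent Feature Extraction, 10.7 in the submitters' processing notes. The deposited log10 ratio is tumour over kidney, per the file headers. The deposited log2 table equals it to within 6.29e-07, has column medians of -0.028 to 0.031 and was an alternative.

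Control and outlier-marked spots (101 to 685 per array) were dropped, spots of a probe averaged, and each array centred on its autosomal median without loess or quantile scaling. Noise per probe ran from 0.22 to 0.54. Of the 716 probes, 417 had kidney signal well above background on all arrays, and none was filtered out. Penalised least squares gave segments (penalty 40 noise variances, at least 5 probes, values limited to 2.5 noise units about a 25-probe running median). Groups were compared by exact permutation, and genes with at least 3 probes by limma 3.58.1. Of 136 gene names, 100 were current, 7 updated and 29 kept.

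Named genes were 8 role lists (Ras and kinase, developmental, oligoadenylate synthetase, repair, cell death, cytoskeleton, metabolism, channel and neuronal), the genes at each border, and up to 3 per contrast by adjusted p. One developmental gene is not reported here by name. In the upper step Grk3, Svop and Cmklr1 were chosen after their values were seen. The members and lists were chosen with earlier results of these data known. Same-numbered tumours were not treated as pairs: their deviations correlated from -0.41 to 0.48, above 0.1 in 7 of 46 pairs. The limma step was tested on simulated data.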

Additional observations from a re-analysis of the deposited data

Results flagged for a closer look

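In the upper step Wild type(Dmt1) tumour 2, with a mean log2 ratio of 0.70, lay far from the other tumours of its group of 4. Its gap to the next was 0.83 of the group's range. The window was chosen for this value, so its distance is a description and no test. The 3 interval means were examined in this way within Wild type(Dmt1), Dmt1Tg and all wild-type tumours, sets that share tumours, and it was the only value picked out.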

How the results depend on the processing

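In Wild type(Dmt1) tumour 2 the upper mean ranged from 0.49 to 0.76 and the lower from 0.28 to 0.48 over 11 alternatives, each within 1 SD of its group from the reported value. That SD, 0.24 and 0.14, includes tumour 2 itself and is a wide yardstick. The SD of its slide-mates was 0.05 and 0.07. Beyond the second step the mean of 0.03 moved to -0.22 with dim kidney probes left out, 0.33 with the shared profile removed and 0.23 with slide-mates removed. The cause was not tested. Slide-mates, probe GC and array patches were alternatives chosen after seeing the data. Tumours gained in the lower step numbered 1, but 2 at a threshold of 0.1 and 3 with the shared profile removed.

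The lower-step difference of Dmt1Tg reversed to -0.0083 with normexp and -0.17 with the same scan day, with or without patches. Those of MutyhKO, Ogg1KO and Mth1KO reversed to 0.12, 0.16 and 0.12 with the same scan day, 0.045, 0.077 and 0.035 when patches were also left out, and 0.080, 0.099 and 0.074 with slide as a term. Dmt1Tg fills 1 slide, so slide could not be fitted for it. Leaving out 1 tumour at a time gave -0.015 to 0.10 for Dmt1Tg, reversed without Wild type tumour 1, 2 or 3. It gave -0.20 to -0.08 for MutyhKO, -0.17 to -0.05 for Ogg1KO and -0.21 to -0.09 for Mth1KO. With the replicate number as a block the differences were 0.03, -0.14, -0.11 and -0.15, and the replicate block changed no call. The limma count of 0 became 1 for Ogg1KO with the same scan day and was 0 there without patches.

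In tumour 2, gene means changed sign for ENSMUST00000127049 (0.017 with the shared profile removed, 0.045 with slide-mates removed), Dynll1 (0.63, 0.31), Oas1a (-0.034, -0.034), Foxn4 (-0.13) and Sds (-0.028) with slide-mates removed, and Oas1d (-0.052) with normexp. The MutyhKO difference of Git2 was 0.16 with slide as a term. Genes with 1 probe, 59 of 136, have no SE.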
